A study of Mus musculus with 22 samples.

Results

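Levels of 10 inflammasome, caspase and interleukin-1 family genes were read in 22 RNA libraries from the middle part of the mouse ulna, a forearm bone. The members were a fixed list of symbols, Nlrc4, Nlrp3, Aim2, Pycard, Casp1, Casp4, Gsdmd, Il1b, Il18 and Il1rn. Each was matched to 1 row by Ensembl identifier, and they make up 10 of the 25471 genes in the tables. All 10 passed the filter on low counts, as did 18793 genes in all. Nlrc4 heads the list because its small p-value in the loading by genotype interaction had singled it out in earlier results of these data. Its interaction, and the 4 differences that the interaction is built from, are therefore given as descriptions without a test.

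The 4 groups were the loaded ulnae of 4 Tlr4 conditional knockout mice (CKO loaded), the non-loaded ulnae of the same 4 mice (CKO non-loaded), the loaded ulnae of 7 wildtype mice (WT loaded) and the non-loaded ulnae of the same 7 mice (WT non-loaded). In every mouse the right limb was the loaded one and the left limb was not. By its title, the series is about Toll-like receptor 4 in osteoblasts, which lay down bone. Tlr4 encodes the receptor for bacterial lipopolysaccharide. The Cre driver, the strain, sex and age of the mice, the loading regime and the time of harvest are not given in the labels used here. The question was whether the response of these genes to loading, and their level in each limb, differed between CKO and WT mice.

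An inflammasome is a protein platform that assembles in the cytosol, mainly of myeloid cells, when a sensor meets microbial or damage signals. Through the adaptor Pycard it activates caspase-1, which cleaves the precursors of interleukin-1 beta and interleukin-18 and opens the pore-forming protein gasdermin D. Transcription of several of these genes, Il1b and Nlrp3 among them, is a separate priming step that Toll-like receptors can drive. The marrow cavity of a long bone is rich in neutrophils and monocytes, which carry many of these transcripts.

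Promoter windows of 3 members are shown because the members varied together over the libraries: Nlrc4, which heads the list, and Nlrp3 and Il1b, the members best known for transcriptional priming. Each is the run of 250 bases before the RefSeq start site (GRCm38.p6), 5′ to 3′ on the strand of the gene. Capitals mark matches to a loose C/EBP pattern, TTNCNNAA, and to an NF-kB pattern, GGGNNTTCC, on either strand. C/EBP factors act in myeloid cells and NF-kB acts downstream of Toll-like receptors. The windows lie at chr17:74459109-74459358 (minus strand), chr11:59541319-59541568 (plus strand) and chr2:129371140-129371389 (minus strand).
Nlrc4: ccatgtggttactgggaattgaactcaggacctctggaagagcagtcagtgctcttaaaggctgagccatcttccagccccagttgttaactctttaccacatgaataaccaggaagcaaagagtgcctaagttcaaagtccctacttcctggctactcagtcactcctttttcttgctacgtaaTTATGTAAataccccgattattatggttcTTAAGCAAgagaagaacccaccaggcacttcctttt
Nlrp3: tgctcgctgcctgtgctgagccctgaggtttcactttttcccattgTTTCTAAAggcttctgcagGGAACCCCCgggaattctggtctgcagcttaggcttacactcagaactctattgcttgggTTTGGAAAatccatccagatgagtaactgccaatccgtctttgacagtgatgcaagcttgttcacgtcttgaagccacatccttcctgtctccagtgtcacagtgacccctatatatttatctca
Il1b: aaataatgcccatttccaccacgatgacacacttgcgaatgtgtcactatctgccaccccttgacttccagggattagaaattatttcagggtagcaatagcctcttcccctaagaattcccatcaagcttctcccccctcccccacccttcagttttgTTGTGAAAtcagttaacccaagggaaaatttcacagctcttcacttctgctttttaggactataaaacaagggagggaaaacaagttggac
The Nlrc4 run held 2 C/EBP matches, 65 and 36 bases before the start, and the Il1b run held 1, 91 bases before it. The Nlrp3 run held 2 C/EBP matches, 204 and 125 bases before the start, and 1 NF-kB match 185 bases before it. Counted over windows that also hold the 50 bases after the start, C/EBP was found in 6 of the 9 members with an entry and in 40.7% of 32851 promoters, and NF-kB in 2 of 9 and 5.82%. The PU.1 core GAGGAA was found in 3 of 9 and 28.3%, the AP-1 pattern TGANTCA in 1 of 9 and 7.81%, and the interferon pattern GAAANNGAA in 0 of 9 and 8.56%. No 2 of these patterns overlapped in the runs shown. A match describes letters and is not a measured site.

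Some libraries stood apart, and they touch every result below. Tlr4 lay between 24.9 and 33.8 CPM (counts scaled to a common library size with TMM factors) in CKO libraries and between 24.9 and 42.2 CPM in WT libraries. Counts over the whole gene do not check a deletion in 1 cell type. Ltbp2, a matrix protein gene chosen after its values were seen, was 205 to 344 CPM in 7 of 8 CKO libraries and at most 73.4 CPM in 13 of 14 WT libraries. The library labelled CKO loaded of mouse 688 had 38.3 CPM and the library labelled WT loaded of mouse 686 had 380 CPM. Results are given with and without these 2 mice. All 14 osteoblast and osteocyte markers and all 15 skeletal muscle markers had counts in every group, and the summed muscle markers ran from 23300 to 185000 CPM. In the non-loaded ulnae of CKO mouse 691 and WT mouse 699 the 12 late neutrophil markers summed to 12500 and 19400 CPM, the 2 highest sums, and the muscle markers to 23300 and 41500 CPM, the 2 lowest. A bulk library cannot tell fewer cells of a type and less RNA per cell apart.

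Nlrc4 is the sensor that joins NAIP proteins bound to bacterial flagellin or secretion-system parts. The gene spans 74425438 to 74459142 on the minus strand of chromosome 17 (GRCm38, GENCODE M21). The annotation places 1 further gene model on the same strand within it, so that reads of the overlap could be counted for either. Nlrc4 was at 4.29, 3.62, 3.60 and 3.85 CPM in the loaded ulnae of CKO mice 688, 691, 693 and 698, against a lowest value of 5.05, a median of 6.36 and a highest value of 8.18 CPM in WT loaded ulnae. The 4 loaded CKO ulnae lay below all 7 loaded WT ulnae. This separation rests on the labels of CKO loaded 688 (4.29 CPM) and WT loaded 686 (5.90 CPM), whose Ltbp2 levels resembled those of the other genotype. With these labels exchanged, the loaded groups would overlap. In the non-loaded ulnae the CKO values were 5.37, 9.27, 4.80 and 5.03 CPM in the same order of mice, against 3.57, 4.80 and 7.79 CPM as lowest, median and highest in WT mice, and the groups overlapped.

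As labelled, each of the 4 CKO mice had less Nlrc4 in its loaded than in its non-loaded ulna. The loaded minus non-loaded differences were -0.32, -1.34, -0.41 and -0.38 on the log2 CPM scale, with a mean of -0.61 ± 0.49 (SD, n = 4). Among WT mice 5 of 7 had more Nlrc4 in the loaded ulna, and the mean difference was 0.35 ± 0.51 (SD, n = 7). With the labels of CKO loaded 688 and WT loaded 686 exchanged, mouse 688 would have 5.90 CPM loaded against 5.37 CPM non-loaded. Mouse 686 would then have 4.29 CPM loaded against 4.64 CPM non-loaded, so the limb differences of these mice would change sign. In the fit over all libraries the log2 fold change of loaded over non-loaded was -0.68 ± 0.23 (SE) in CKO mice and 0.33 ± 0.17 in WT mice, so that the interaction was -1.01 ± 0.28. CKO over WT gave -0.72 ± 0.21 in loaded ulnae and 0.29 ± 0.20 in non-loaded ulnae. These 5 values were selected on and carry no test.

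**Figure D1:**
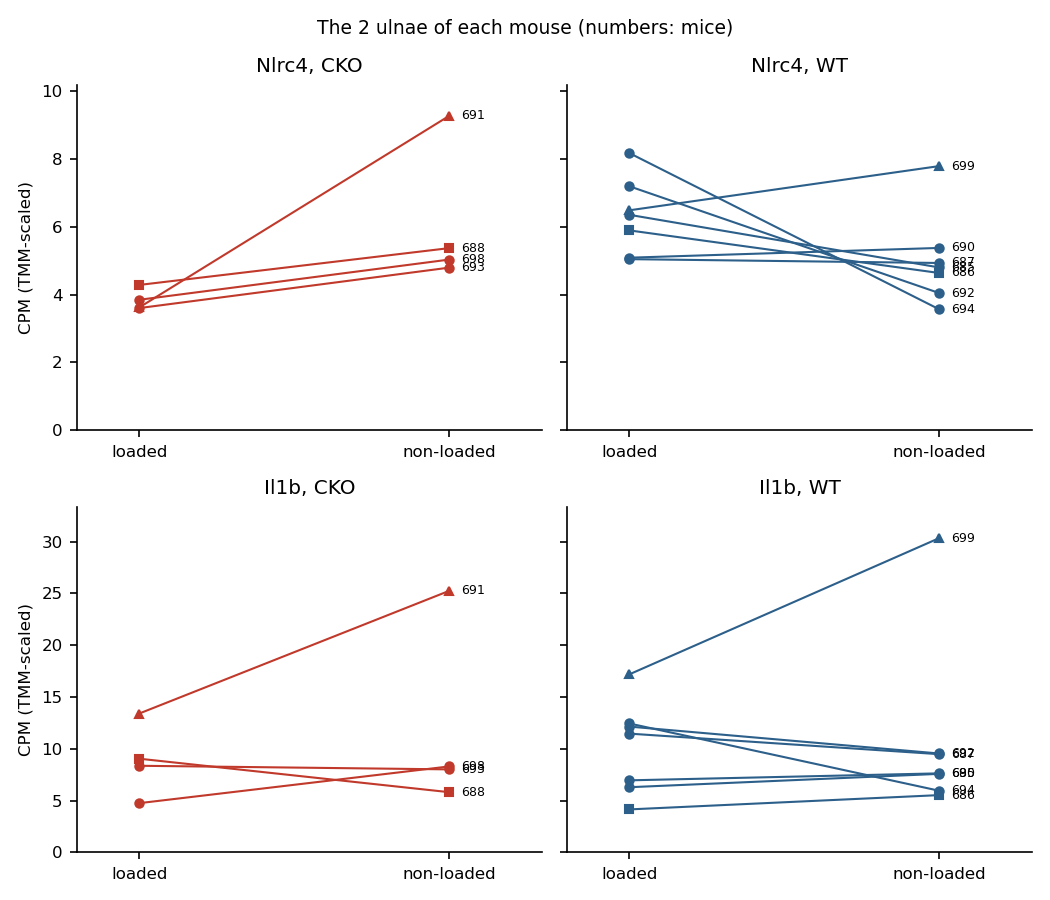
Level of Nlrc4 (top) and Il1b (bottom) in CPM in the loaded and non-loaded ulna of each mouse, with CKO mice on the left and WT mice on the right. Lines join the ulnae of 1 mouse. As labelled, Nlrc4 was lower in the loaded ulna of all 4 CKO mice, with the loaded label of mouse 688 in doubt. Il1b was highest in the non-loaded ulnae of CKO mouse 691 (25.3 CPM) and WT mouse 699 (30.3 CPM).

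Groups that do not overlap were uncommon among all genes with every mouse included. Nlrc4 was selected on the interaction in these same libraries, so its standing in the shares below is a description and no support. In loaded ulnae 231 genes, 1.23% of those tested, had CKO and WT libraries that did not overlap, and Nlrc4 was the only member among them. As labelled, a loaded limb below the non-loaded one in every CKO mouse was found for 1107 genes, 5.89%. Nlrc4 was the only member here too, and its place rests on the label of CKO loaded 688. Without mice 686 and 688 Nlrc4 still lay below WT in every loaded CKO ulna, as did Casp1, but 18.3% of all genes then had loaded groups that did not overlap. The Nlrc4 interaction was -1.10 without these mice. Mouse 691 carried the largest limb difference, and without it loading in CKO mice gave -0.37 ± 0.24 for Nlrc4 and the interaction was -0.69 ± 0.28. Without mice 691 and 699 together the values were -0.36 ± 0.19 and -0.80 ± 0.23.

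Measures that the choice of Nlrc4 did not use showed no call. Over all 11 mice, weighting the genotypes by their number, loading gave -0.03 ± 0.14 (edgeR adjusted p = 1.0). Over both limbs summed per mouse, CKO over WT gave -0.16 ± 0.14 (edgeR adjusted p = 0.919).

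Nlrp3 and Aim2 are the other 2 sensors; Nlrp3 responds to ion fluxes and many damage signals, and Aim2 binds DNA in the cytosol. Nlrp3 was at 8.81, 6.93, 5.47 and 3.10 CPM in loaded ulnae of CKO mice 688, 691, 693 and 698, against 6.81, 8.37 and 11.9 CPM as lowest, median and highest in loaded WT ulnae. Of these 4 CKO values 2 lay below the lowest WT value, and the groups overlapped. CKO over WT in loaded ulnae gave -0.55 ± 0.32 for Nlrp3 (edgeR adjusted p = 0.601), and -0.80 ± 0.38 without mice 686 and 688. In non-loaded ulnae Nlrp3 ran between 5.10 and 13.5 CPM in CKO mice and between 5.13 and 17.3 CPM in WT mice. The interaction, not tested, was -0.55 for Nlrp3 and -0.59 for Aim2. Aim2 ran from 3.16 to 7.43 CPM in CKO loaded and from 5.70 to 10.7 CPM in CKO non-loaded ulnae, and from 4.98 to 9.38 CPM in WT loaded and from 4.17 to 9.74 CPM in WT non-loaded ulnae. Cadm3 overlaps Aim2 on the opposite strand, and whether counting used strand is not given in the sources used here.

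Pycard, the adaptor that bridges sensors and caspase-1, averaged 12.2 ± 3.32 CPM in CKO loaded and 16.6 ± 6.48 CPM in CKO non-loaded ulnae (SD, n = 4 each). In WT mice it averaged 14.7 ± 2.79 CPM in loaded and 14.4 ± 6.67 CPM in non-loaded ulnae (SD, n = 7 each). Casp1, which encodes the caspase that matures both cytokines, averaged 5.15 ± 0.50 CPM in CKO loaded and 7.25 ± 2.38 CPM in CKO non-loaded ulnae, and 6.14 ± 1.06 CPM in WT loaded and 6.50 ± 2.47 CPM in WT non-loaded ulnae. Casp4, the mouse caspase-11 gene, whose product senses lipopolysaccharide inside the cell, averaged 5.64 ± 0.76 CPM in CKO loaded and 6.45 ± 1.69 CPM in CKO non-loaded ulnae, and 6.05 ± 1.08 CPM in WT loaded and 5.35 ± 1.32 CPM in WT non-loaded ulnae. Gsdmd, the pore protein cut by both caspases, averaged 14.0 ± 3.18 CPM in CKO loaded and 17.5 ± 4.45 CPM in CKO non-loaded ulnae, and 17.8 ± 2.40 CPM in WT loaded and 16.7 ± 5.89 CPM in WT non-loaded ulnae. For these 4 genes the non-loaded groups had the widest spread in each genotype, and mice 691 and 699 held the highest non-loaded value of each.

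Il1b encodes the cytokine that drives fever and neutrophil recruitment. It was at 9.05, 13.4, 8.37 and 4.76 CPM in loaded ulnae of CKO mice 688, 691, 693 and 698, against 4.15, 11.5 and 17.2 CPM as lowest, median and highest in loaded WT ulnae. In non-loaded ulnae it was at 5.82, 25.3, 8.02 and 8.30 CPM in these CKO mice, against 5.53, 7.63 and 30.3 CPM as lowest, median and highest in WT mice. The groups overlapped in both limbs, and only mice 691 and 699 exceeded 10 CPM without load. Il1b was lower in the loaded ulna of 2 of 4 CKO mice and of 4 of 7 WT mice. Il18, whose product induces interferon gamma in lymphocytes, was the least counted member, with 21 to 97 counts a library, and its untested interaction was -0.54. Il1rn, the receptor antagonist that blocks interleukin-1, ran from 3.79 to 8.95 CPM in CKO loaded and from 5.98 to 17.2 CPM in CKO non-loaded ulnae. In WT mice it ran from 4.94 to 14.0 CPM in loaded and from 5.66 to 24.9 CPM in non-loaded ulnae.

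**Figure D2:**
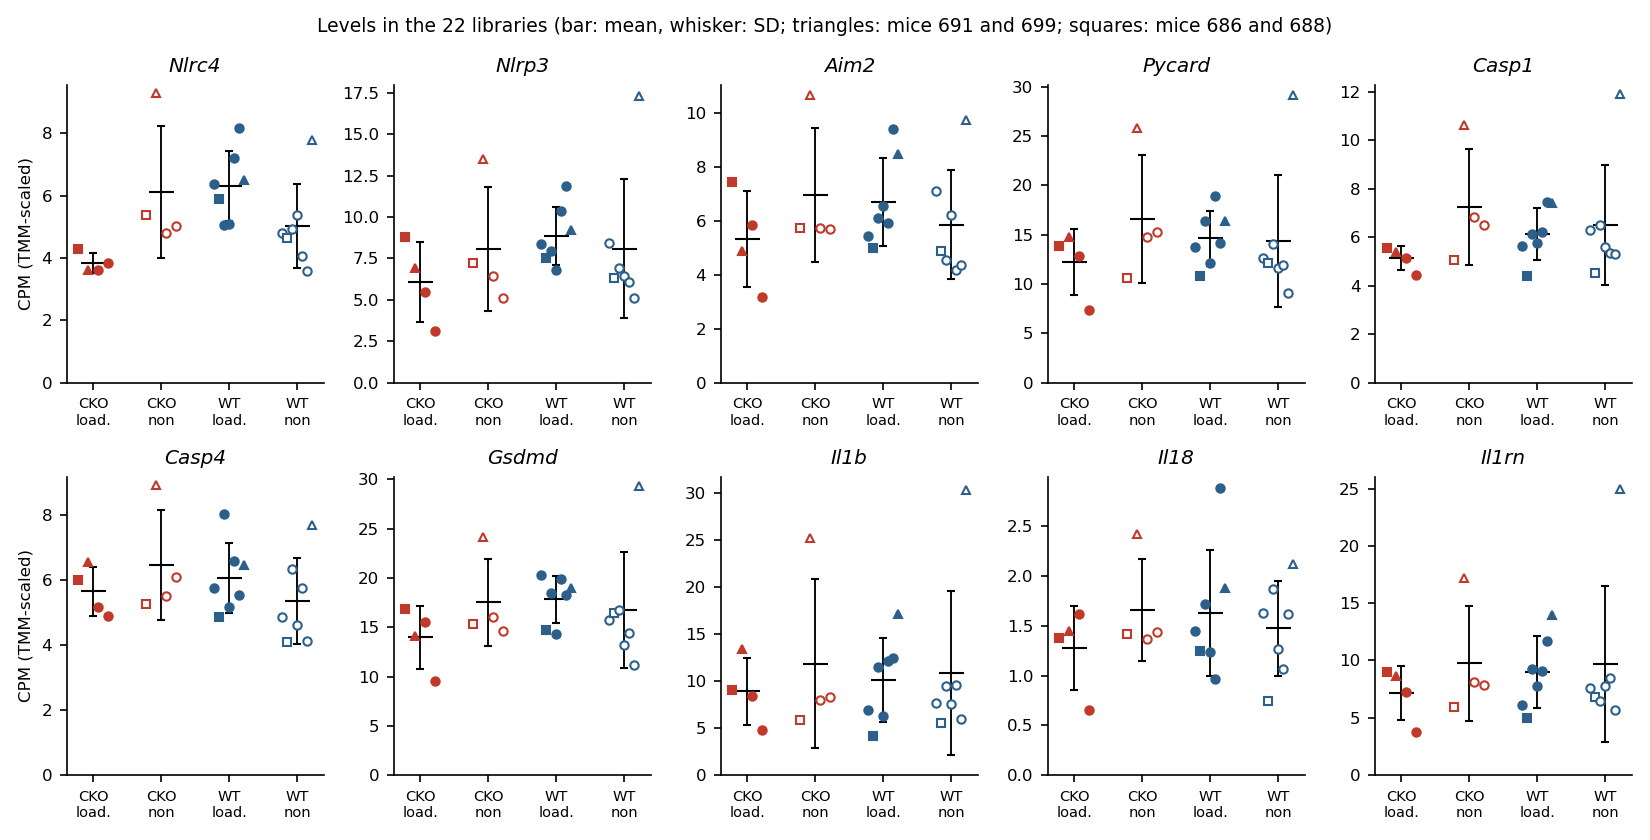
Level of each member in CPM in all 22 libraries, by group, with loaded ulnae filled, non-loaded ulnae open, the mean as a bar and the SD as a whisker. Triangles mark mice 691 and 699, whose non-loaded ulnae hold the highest non-loaded value of each genotype for all 10 genes, and squares mark mice 686 and 688.

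Per length of exon, Gsdmd had the highest mean level over the 22 libraries, at 7.04 ± 1.77 CPM per kb (SD), followed by Il1b at 5.48, Casp1 at 4.19 and Pycard at 3.81 CPM per kb. Nlrp3 at 1.97, Aim2 at 1.78, Il1rn at 1.63, Casp4 at 1.57, Il18 at 1.47 and Nlrc4 at 1.13 CPM per kb made up a lower group. Pycard over Nlrp3 was the only step between neighbours that held in 22 of 22 libraries, with a mean log2 ratio of 0.98 ± 0.29. Every other step between neighbours held in at most 18 of 22 libraries.

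No member tested passed an adjusted p of 0.05 in any contrast, and few genes did. By edgeR 0.0905% of genes were called for loading over all mice, 0.016% for loading in CKO, 0.00532% for loading in WT, and 0% for genotype in loaded ulnae, in non-loaded ulnae and over both limbs. At an unadjusted p under 0.05, edgeR and DESeq2 each gave 0 of the members tested in all of these contrasts, and limma voom with quality weights gave 1 to 3. Nlrc4 was among the members tested only for loading over all mice and for genotype over both limbs. Over all genes edgeR gave 2.80% for loading over all mice, 3.60% for loading in CKO, 2.34% for loading in WT, 6.81% for genotype in loaded ulnae, 3.04% in non-loaded ulnae and 3.16% over both limbs at that threshold. DESeq2 and limma voom also called 0 of the members tested at the adjusted threshold.

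The members often leaned one way together, and since they vary together their counts are not independent. Loading in CKO mice gave a log2 fold change below 0 for 10 of 10 members, between -0.68 and -0.20, with a median of -0.42, beside a median of -0.01 over all genes tested. Loading in WT mice gave values above 0 for 7 of 10, with a median of 0.11 and a range of -0.10 to 0.33. Without mouse 694 only 3 of 10 were above 0 (median -0.04), and without mouse 699 all 10 were (median 0.27), as with limma voom (median 0.26). CKO over WT was below 0 for 10 of 10 in loaded ulnae (median -0.33, all genes -0.04) and above 0 for 10 of 10 in non-loaded ulnae (median 0.17, all genes 0.00). Without mouse 698 the median in loaded ulnae was -0.14 with 9 of 10 below 0, and with limma voom it was -0.17 with 9 of 10 below 0. Median-ratio and upper-quartile scaling put Nlrp3 just below 0 in non-loaded ulnae, which left 9 of 10 above 0. Without mouse 691 only 2 of 10 were above 0 in non-loaded ulnae, with a median of -0.10, and without mouse 699 all 10 were, with a median of 0.42. Without mouse 691 the median for loading in CKO mice was -0.14, without mouse 688 it was -0.65, and with limma voom it was -0.11 with 8 of 10 below 0. These comparisons share libraries. Over both limbs 1 of 10 was above 0, with a median of -0.04, and single mice set the sign. Without mouse 691 the count was 0 of 10 (median -0.22), without mouse 698 it was 7 of 10 (0.06) and without mouse 699 it was 7 of 10 (0.10), while limma voom gave 5 of 10 (0.0054). The p-values of the group fits measure the spread between libraries of a group, and their model has no term for the mouse. The edgeR adjusted p lay between 0.739 and 0.784 for loading in CKO mice and between 0.601 and 0.880 for genotype in loaded ulnae.

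**Figure D3:**
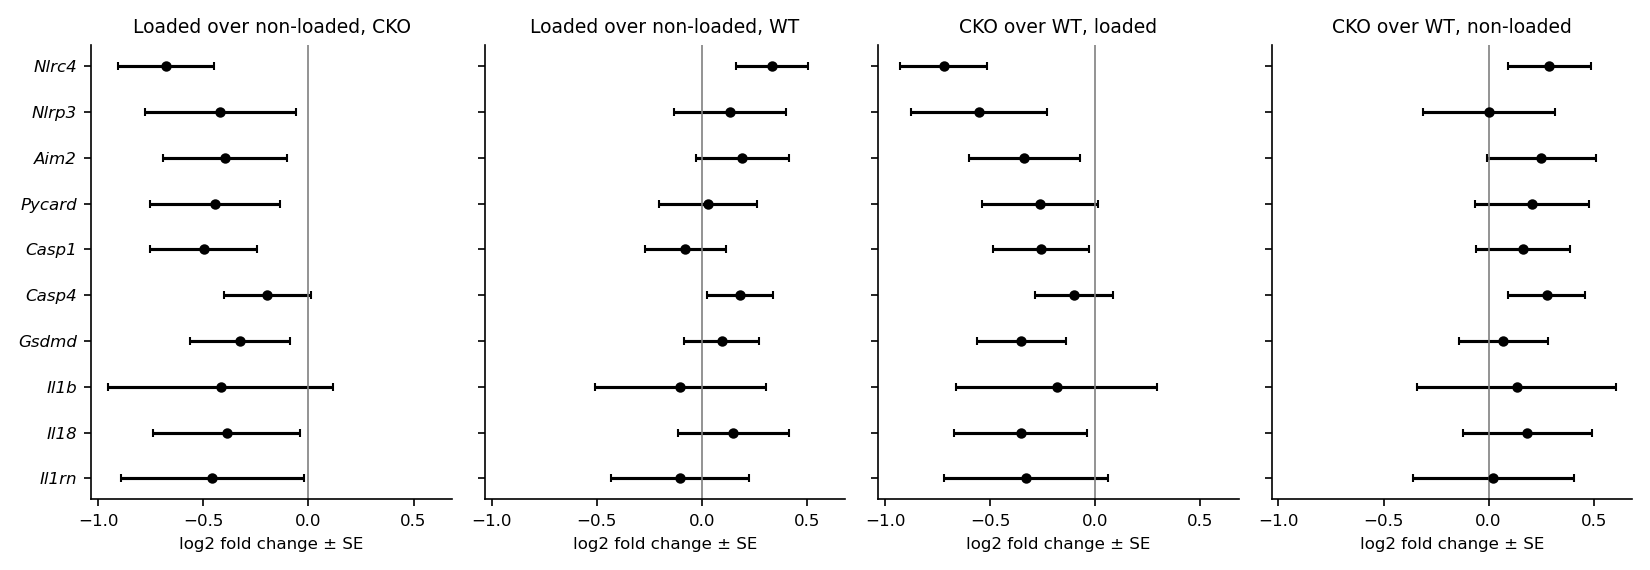
Log2 fold change with its SE for each member, for loading in CKO and in WT mice and for CKO over WT in loaded and in non-loaded ulnae. All 10 values lie below 0 for loading in CKO mice and for genotype in loaded ulnae. Intervals of 1 SE cross 0 for Casp4 and Il1b in these contrasts, and for Pycard and Il1rn in the genotype contrast of loaded ulnae only. No member tested was called in any of the 4 contrasts.

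The members varied together. Over the 22 libraries the 45 pairs of members had a median Pearson correlation of 0.753, between 0.498 for Nlrc4 with Il18 and 0.939 for Il1b with Il1rn. These are descriptions, since the libraries share mice and differ in tissue content. Among 13483 other genes the pattern most like that of Nlrc4 was Derl2 (r = 0.908), followed by Pigm (0.898), Cdk12 (0.881), Psd4 (0.88) and Akap10 (0.87). The 5 genes most like Il1b were Litaf (0.954), Cfl1 (0.946), Actb (0.941), Arpc1b (0.941) and Selplg (0.94). The nearest gene was Samhd1 for Nlrp3 (0.967), Apobec1 for Aim2 (0.935), Coro1a for Pycard (0.962), Ptpn6 for Casp1 (0.957), Il4ra for Casp4 (0.908), Dok3 for Gsdmd (0.965), Tmem106a for Il18 (0.825) and Fcer1g for Il1rn (0.974).

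Relations to the marrow were tested per mouse against 3 marker scores, each the mean log2 CPM of a list: late neutrophils (12 genes, S100a8 and Ly6g among them), monocytes and macrophages (15 genes, Csf1r and Adgre1 among them) and skeletal muscle (15 genes). Of 60 relations, 56 passed a Benjamini-Hochberg adjusted p of 0.05 in a two-sided permutation test with 100000 resamples. Such counts include Nlrc4, whose limb differences were selected on, so that its part in them is no support. For the loaded minus non-loaded difference, all 10 members correlated positively with the late neutrophil score, at Pearson correlations of 0.657 to 0.975 over 11 mice. The same difference followed the monocyte and macrophage score at 0.705 to 0.970 and ran against the muscle score at -0.945 to -0.642. Over all genes tested the median correlation was 0.017, 0.030 and -0.037 with these 3 scores, and 3.76%, 3.11% and 14.3% of genes were past the members' own median. The share of all genes that would pass the same permutation test was not computed, here or for the mouse means below. The 60 relations are not independent, since the members vary together.

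For the limb difference, Nlrp3 followed the late neutrophil score most closely. Its limb difference correlated at r = 0.975 (Spearman's rho 0.964, permutation p = 2e-05, adjusted p = 0.000343, n = 11 mice), and at r = 0.959 without mice 691 and 694, the farthest from the median score. For Il1b the correlation was 0.936 (rho 0.891, permutation adjusted p = 0.000343), and 0.889 without these mice. For Nlrc4 it was 0.806 (rho 0.800), and 0.587 without them. Since the limb differences of Nlrc4 were selected on, these values are descriptions without a test. Nlrc4 in CKO mouse 688 was lower in the loaded ulna, although the late neutrophil score was higher there by 0.30. The loaded library of mouse 688 had an Ltbp2 level like that of most WT libraries, so the limb differences of this mouse are in doubt. Il18 had the lowest value, 0.657, which was 0.392 without the same mice.

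**Figure D4:**
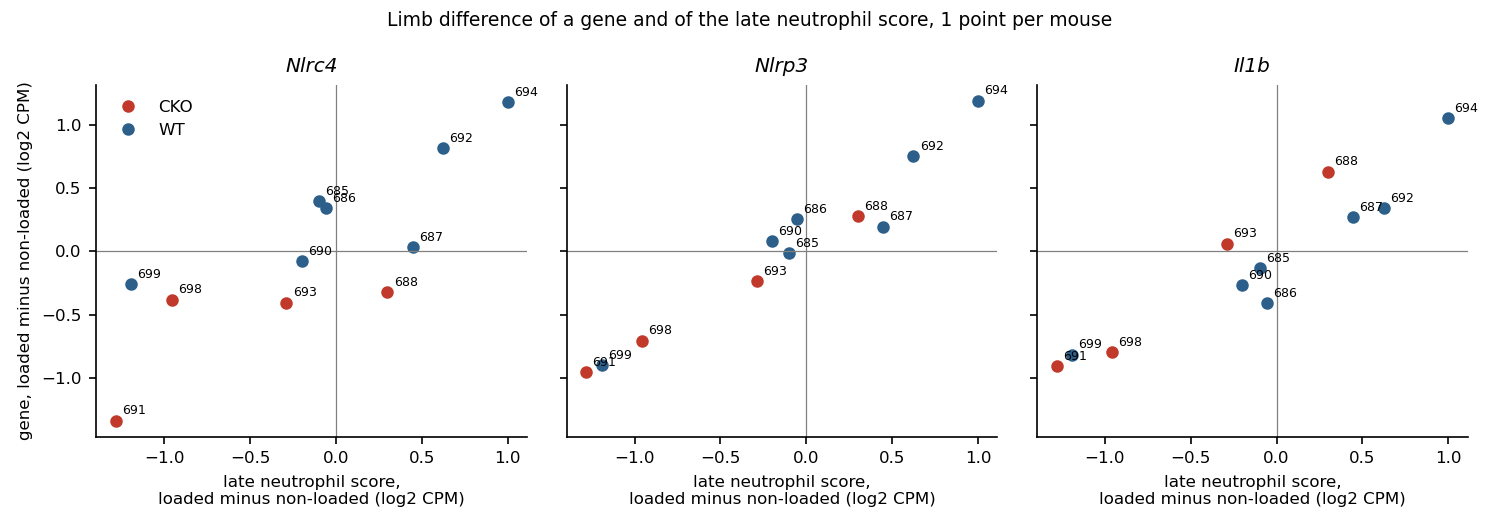
Loaded minus non-loaded difference of Nlrc4, Nlrp3 and Il1b against that of the late neutrophil score, both in log2 CPM, with 1 point per mouse, CKO in red and WT in blue. Mice 691, 699 and 698 lie at the lower left and WT mice 692 and 694 at the upper right. For Nlrc4 all 4 CKO mice, as labelled, lie below 0.

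For the mean of both ulnae of a mouse the relations were looser. The late neutrophil score gave correlations of 0.469 to 0.930, of which 8 of 10 passed, and as low as 0.130 without the 2 farthest mice. Here Il1rn was highest and Nlrp3 was at 0.663. The monocyte and macrophage score gave 0.451 to 0.844, again with 8 of 10 passing, and the muscle score gave -0.825 to -0.654, with 10 of 10. Over all genes 15.7%, 11.5% and 4.83% were past the members' own median for these 3 scores. With ranks in place of values, 3, 6 and 8 members passed for these scores. Without mice 691 and 699, 29 of 60 relations passed.

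The marker scores were also compared between the limbs, without a test. The late neutrophil score differed by -0.56 ± 0.71 (SD, n = 4) between loaded and non-loaded CKO ulnae and by 0.07 ± 0.71 (n = 7) between loaded and non-loaded WT ulnae. The muscle score differed by 0.82 ± 1.33 in CKO mice and by -0.03 ± 0.82 in WT mice, and the monocyte and macrophage score by -0.36 ± 0.53 in CKO mice and 0.09 ± 0.38 in WT mice. These 3 scores leaned one way in 3 of 4 CKO mice and the other way in 1. The osteoblast and osteocyte score (14 genes) exceeded that of the non-loaded ulna in 4 of 4 CKO mice, by a mean of 0.23 ± 0.11, and in 2 of 7 WT mice, with a mean of -0.18 ± 0.35. The osteoclast score (7 genes) was lower in the loaded ulna of 4 of 4 CKO mice, by a mean of -0.67 ± 0.66, and of 5 of 7 WT mice, by -0.30 ± 0.51. The B cell score (10 genes) differed by -0.53 ± 0.68 in CKO mice and by 0.15 ± 0.59 in WT mice. The T and NK cell score (11 genes) differed by -0.69 ± 0.36 in CKO mice and by 0.05 ± 0.66 in WT mice. It was lower in the loaded ulna of 4 of 4 CKO mice and of 3 of 7 WT mice. The neutrophil precursor, erythroid and megakaryocyte scores differed by -0.31 ± 0.73, -0.34 ± 1.61 and -0.45 ± 1.14 in CKO mice. In WT mice they differed by 0.20 ± 0.52, 0.35 ± 1.17 and 0.31 ± 1.09. The part of these cell types in the members' values was not tested. With the muscle and late neutrophil scores as covariates, loading in CKO mice had a member median of 0.03, and 7 of 10 values were above 0. Nlrc4 was at -0.33 ± 0.15 in that fit, and Il1b at 0.50. The interaction of Nlrc4 was -0.66 ± 0.18 with the covariates, while the other 9 members lay between -0.16 and 0.53. CKO over WT in loaded ulnae was -0.50 ± 0.13 for Nlrc4, beside a member median of -0.03. The Nlrc4 values of this fit were selected on like those without covariates and carry no test. The fit with covariates includes mice 686 and 688. The members' median for loading in CKO mice was -0.14 without mice 691 and 699, and -0.67 without mice 686 and 688.

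**Figure D5:**
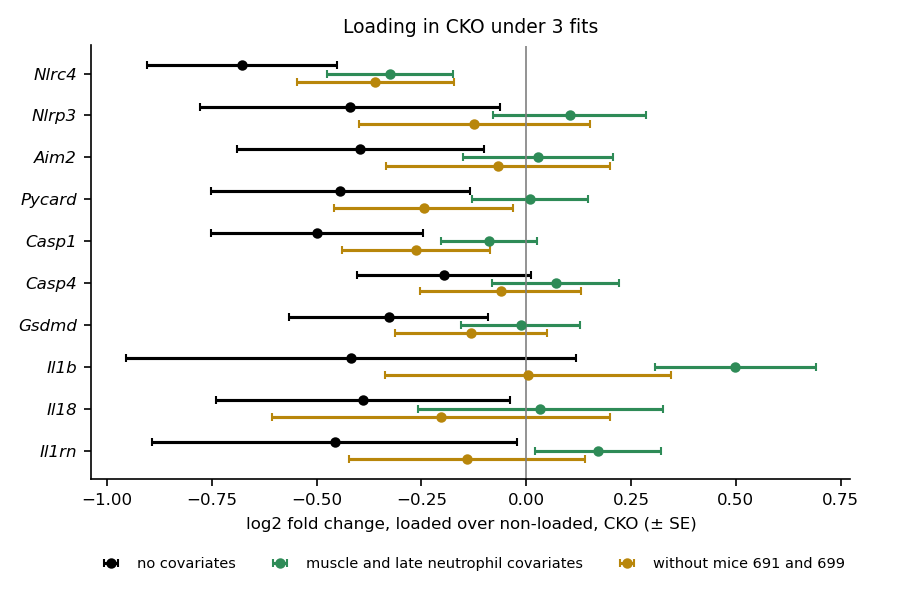
Log2 fold change of loaded over non-loaded in CKO mice, with its SE, for each member without covariates, with the muscle and late neutrophil scores as covariates, and without mice 691 and 699. With the covariates 7 of 10 values lie above 0, and Nlrc4 lies at -0.33, against -0.68 without them.

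The wider pathway was read from 4 lists with 41 genes, of which 39 were tested in the group fits. These were the NAIP genes, other sensors and their partners, other caspases and pore-forming proteins, and other ligands, receptors and adaptors of the interleukin-1 family. By edgeR 0 of 39 passed the adjusted threshold in any group contrast, and at an unadjusted p under 0.05 loading in CKO mice gave 3, P2rx7, Il1a and Il18r1, beside 3.60% of all genes, and the other group contrasts 0. Loading in CKO mice was above 0 for 6 of 39, with a median of -0.29, and loading in WT mice for 31 of 39, with a median of 0.08. CKO over WT was above 0 for 6 of 39 in loaded ulnae (median -0.23) and for 32 of 39 in non-loaded ulnae (median 0.11). Over all genes tested, 48.3%, 47.7%, 43.7% and 49.3% were above 0 in these 4 contrasts, in the same order. The pathway genes leaned the same way as the members in these 4 contrasts. Both sets were read in the same libraries, so this is no independent result. The lean of the pathway genes was not examined with mice left out or with covariates.

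Il1a, which encodes interleukin-1 alpha, was the only pathway gene with a value of 1 or more in size. It ran from 0.876 to 1.53 CPM in CKO loaded and from 1.29 to 5.12 CPM in CKO non-loaded ulnae, and loading in CKO mice gave -1.18 ± 0.49 (edgeR adjusted p = 0.739). Its untested interaction was -1.02 ± 0.60. The NAIP proteins detect bacterial ligands for Nlrc4, and Naip2, Naip5 and Naip6 were tested. Their genes are related copies, so that the counts of each are uncertain. Naip2 had a median of 19.5 CPM in CKO loaded and 22.9 CPM in CKO non-loaded ulnae, and 23.0 CPM in WT loaded and 19.8 CPM in WT non-loaded ulnae. CKO over WT in loaded ulnae gave -0.36 ± 0.32 for Naip2, -0.41 ± 0.26 for Naip5 and -0.29 ± 0.28 for Naip6 (edgeR adjusted p = 0.679, 0.606 and 0.693). Naip1 averaged 0.146 CPM and was not tested in these fits.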

How the data were processed

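Per the labels' protocols, ulnae kept in RNAlater were pulverized and 4 ng of RNA went into stranded total RNA libraries. STAR, RSEM and the build GRCm38 are named in the submitters' processing notes. Versions, annotation and strand setting are not stated there. The authors deposited expected counts per gene, which were rounded here; totals ran from 21999891 to 42833729. No 2 libraries of a group agreed within sampling noise (chi-square per gene at least 27.4 over 54 pairs). The main test was edgeR 4.0.16 (filterByExpr, TMM, glmQLFit with robust=TRUE): the 22 libraries entered a single model of 4 group means, and genotype over both limbs used counts summed per mouse. P-values were adjusted over all genes tested and called under 0.05. Log2 CPM used a prior count of 2. Alternatives were other scalings and filters, DESeq2 1.42.0, limma voom (limma 3.58.1), covariates, the mouse as a block and leaving out mice.

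Members, gene lists, tests and most alternatives were chosen with earlier results of these data known. Leaving out mice 691 and 699 was added after the data were examined. A log2 fold change is given singly for Nlrc4, for members at 0.5 or more in size and for NAIP genes and pathway genes at 1 or more; genes most alike came from tested genes with a mean of at least 1 CPM. Both limbs of a mouse carry its number, so the numbers pair libraries of 1 animal; deviations from the group means correlated at -0.256 to 0.415, over 0.1 in 7 of 11 mice. The fits were tested on simulated data.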

Additional observations from a re-analysis of the deposited data

Results flagged for a closer look

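In 12 of 40 groups of member values, the highest library lay far from the others by Dixon's criterion, which chance meets in about 1 group in 20; the members vary together, so these groups are not independent. All 12 were non-loaded ulnae of mouse 691 or 699. In CKO mouse 691 the values were 9.27 CPM for Nlrc4, 10.7 CPM for Aim2, 24.2 CPM for Gsdmd, 25.3 CPM for Il1b and 2.42 CPM for Il18. In WT mouse 699 they were 7.79 CPM for Nlrc4, 17.3 CPM for Nlrp3, 29.2 CPM for Pycard, 11.9 CPM for Casp1, 29.3 CPM for Gsdmd, 30.3 CPM for Il1b and 24.9 CPM for Il1rn. The late neutrophil markers summed to 12500 CPM in the non-loaded ulna of mouse 691 and 19400 CPM in that of mouse 699, against medians of 5700 CPM in CKO and 4450 CPM in WT non-loaded ulnae.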

How the results depend on the processing

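Among the members tested, which left out Nlrc4 in the contrasts it was selected on, the number called stayed at 0 in each contrast under every alternative run. With the mouse as a block, loading gave 0 members called over all mice, in CKO mice and in WT mice, Nlrc4 was at -0.63 in CKO and 0.35 in WT mice with an interaction of -0.98, and no call changed. The number of genes called over all genes moved more: 6 to 106 for loading over all mice (17 as reported, 10 with the block), 0 to 22 for loading in CKO mice (3 as reported, 5 with the block), 0 to 34 for loading in WT mice (1 as reported, 2 with the block), and, against 0 as reported, 0 to 1 for genotype in loaded ulnae, 0 to 2 in non-loaded ulnae and 0 to 3 over both limbs. Loading of Nlrc4 over all mice was -0.03 and changed sign to 0.023 with limma voom, 0.095 with the muscle and late neutrophil covariates and 0.17 without mice 691 and 699. Leaving out 1 mouse at a time, it ran from -0.16 without mouse 694 to 0.12 without mouse 691 and was above 0 in 4 cases. Relations to the marker scores that passed fell in number to 29 without mice 691 and 699, against 56 with all mice and 46 without mice 686 and 688; the cause was not tested. CKO groups of 4 mice, and 21 to 97 counts a library for Il18, limit what could be called.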
